A study of Homo sapiens with 18 samples.

Results

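The 10 integrin subunit genes examined here were ITGA2, ITGA3, ITGA5, ITGA6, ITGAV, ITGAE, ITGB1, ITGB4, ITGB5 and ITGB8, taken by name from the 58302 genes of the expression table and from 26 integrin subunit genes in all. They were followed in PANC-1, an established cell line from a human pancreatic ductal carcinoma, in cells given a lentiviral control vector (shCtrl) and in cells with stable lentiviral knockdown of NAT10 (shNAT10). NAT10 is the enzyme that places N4-acetylcytidine (ac4C) on RNA. RNA-seq covered 3 libraries per group, and acRIP-seq, in which an antibody against ac4C pulls down RNA fragments that are then sequenced beside their input, covered 3 immunoprecipitated and 3 input samples per group. The control is called an empty vector in the sample descriptions, while the study's reagent list holds a non-targeting shRNA, and which of the NAT10 hairpins was used is not given in the sources used here. Both groups are derivatives of a single cell line, and nothing says that the libraries came from separate cultures, so p-values measure the spread between these libraries only, which may be technical.

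Integrins are receptors of the cell surface that bind the extracellular matrix, and each is a pair of an α and a β subunit that leave the endoplasmic reticulum only together. ITGB1 encodes the widely shared β1 chain, which pairs with α2 to bind collagen, with α3 and α6 to bind laminin, with α5 to bind fibronectin, and with αv. The β4, β5 and β8 chains are choosier: β4 pairs with α6 in hemidesmosomes, and β5 and β8 pair with αv to bind vitronectin and latent TGF-β. ITGAE encodes αE, the E-cadherin receptor of lymphocytes of the epithelium, whose partner is β7. Clustered integrins recruit talin and kindlin and activate the kinases FAK and Src at focal adhesions, which is how carcinoma cells pull on matrix and move through it.

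The coding stretches below carried the acRIP-seq peaks that the account of these transcripts turns on, and are shown because they let a reader see where the peak lists of the groups met and where they did not. They are coding bases of GENCODE release 29 on GRCh38, written 5′ to 3′ on the strand of the mRNA with introns left out, and capitals mark bases that also lay inside a peak of the other group. In ITGB5, which lies on the minus strand of chromosome 3, peak 1 of shCtrl ran over chr3:124796803-124817708 and 238 of its 300 bases were coding, peak 2 of shCtrl covered chr3:124773700-124773880, and the coding bases of peak 2 of shNAT10 lay in chr3:124819796-124821474. In ITGB4, on the plus strand of chromosome 17, peak 7 of shCtrl had 152 coding bases in chr17:75750847-75751111, and the first 300 bases of peak 3 of shNAT10 lay in chr17:75731265-75732196. The first 300 bases of peak 3 of shCtrl on ITGA5, on the minus strand, lay in chr12:54408121-54409308, and those of peak 1 of shCtrl on ITGA6, on the plus strand, in chr2:172475026-172476508.
ITGB5 shCtrl peak 1: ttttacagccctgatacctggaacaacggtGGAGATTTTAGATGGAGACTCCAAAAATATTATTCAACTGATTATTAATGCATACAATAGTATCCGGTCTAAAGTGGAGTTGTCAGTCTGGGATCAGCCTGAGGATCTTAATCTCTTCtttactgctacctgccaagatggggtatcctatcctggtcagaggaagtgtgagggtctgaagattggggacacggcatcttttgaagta
ITGB5 shCtrl peak 2: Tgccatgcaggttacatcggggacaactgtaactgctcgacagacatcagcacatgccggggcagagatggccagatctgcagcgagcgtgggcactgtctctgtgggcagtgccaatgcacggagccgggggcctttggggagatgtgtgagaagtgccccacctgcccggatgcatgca
ITGB5 shNAT10 peak 2: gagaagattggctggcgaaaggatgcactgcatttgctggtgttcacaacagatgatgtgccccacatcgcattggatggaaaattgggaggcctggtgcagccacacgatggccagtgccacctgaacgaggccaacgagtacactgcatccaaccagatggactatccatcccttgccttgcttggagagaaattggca
ITGB4 shCtrl peak 7: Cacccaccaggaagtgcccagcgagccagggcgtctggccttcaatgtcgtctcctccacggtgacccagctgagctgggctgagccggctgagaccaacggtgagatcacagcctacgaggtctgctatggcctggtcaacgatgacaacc
ITGB4 shNAT10 peak 3: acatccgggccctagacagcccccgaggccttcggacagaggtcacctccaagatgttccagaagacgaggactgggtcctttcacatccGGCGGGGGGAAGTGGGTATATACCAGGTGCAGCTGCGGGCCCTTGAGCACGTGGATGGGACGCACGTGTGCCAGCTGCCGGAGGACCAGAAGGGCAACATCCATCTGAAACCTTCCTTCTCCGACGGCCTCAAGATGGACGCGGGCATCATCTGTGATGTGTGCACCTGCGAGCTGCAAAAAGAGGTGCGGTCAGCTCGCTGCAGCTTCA
ITGA5 shCtrl peak 3: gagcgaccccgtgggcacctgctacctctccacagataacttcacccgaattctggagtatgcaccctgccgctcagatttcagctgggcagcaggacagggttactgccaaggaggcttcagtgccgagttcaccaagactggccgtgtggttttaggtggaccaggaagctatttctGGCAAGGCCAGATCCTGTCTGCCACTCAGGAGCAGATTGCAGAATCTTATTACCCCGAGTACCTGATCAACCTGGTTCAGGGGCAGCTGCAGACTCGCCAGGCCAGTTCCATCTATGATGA
ITGA6 shCtrl peak 1: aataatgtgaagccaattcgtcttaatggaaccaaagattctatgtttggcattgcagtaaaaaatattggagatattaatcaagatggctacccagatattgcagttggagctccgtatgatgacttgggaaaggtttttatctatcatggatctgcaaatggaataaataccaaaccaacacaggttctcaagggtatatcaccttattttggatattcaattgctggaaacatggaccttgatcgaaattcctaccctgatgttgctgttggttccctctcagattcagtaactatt

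The 6 RNA-seq libraries held between 15964223 and 23718069 reads on genes, recovered from the steps between the deposited FPKM values (fragments per kilobase of transcript, scaled to the reads of the library). NAT10 itself stood at 31.6, 27.7 and 28.6 FPKM in shCtrl and at 7.92, 8.43 and 7.9 FPKM in shNAT10, so the knockdown was visible in every library (log2 fold change -1.84, standard error 0.08, limma adjusted p = 3.85e-05). All 8 ductal epithelial markers were expressed, with a summed level of 2835.1 to 3793.3 FPKM in shCtrl and 1544.6 to 1725.3 FPKM in shNAT10 that was mostly keratin. The keratins KRT7, KRT8, KRT18 and KRT19 fell, with log2 fold changes between -1.18 and -0.83, whereas EPCAM, an epithelial adhesion molecule, rose from 4.87 ± 0.783 to 22.6 ± 1.55 FPKM (SD, n = 3 each) and the transcription factor SOX9 rose with 0.19 (limma adjusted p = 0.0498). CDH1 and MUC1, at 0.33 and 0.17, did not pass the test. Leukocyte markers summed to at most 4.56 FPKM in any library, with PTPRC and CD3E near 0. The largest were CD14 (2.53 FPKM on average in shCtrl and 1.46 in shNAT10) and ITGB2 (1.06 and 0.629). Endothelial markers summed to at most 0.651 FPKM. Fibroblast markers summed to between 19.3 and 34.7 FPKM, with DCN, LUM and PDGFRA near 0. Most of that sum came from the collagen gene COL1A1 (31.1 and 19.2 FPKM on average), and COL3A1 stood at 0.776 and 1.96 FPKM. Schwann cell markers summed to 8.1 to 9.87 FPKM in shCtrl and 17.6 to 18.3 FPKM in shNAT10. S100B and SOX10 were near 0, and nearly all of the sum came from MBP (8.95 and 18.0 FPKM on average). A control library stood apart. In shCtrl replicate 2, the 3238 genes with the longest transcripts were lower than in the other shCtrl libraries by a median of -0.29 on the log2 scale and the 3238 with the shortest higher by 0.31, and the same numbers of genes with the lowest and the highest GC content differed by -0.23 and 0.26. The same medians lay between -0.22 and 0.22 in shCtrl replicate 1, whose comparison libraries include replicate 2, and between -0.08 and 0.11 in shCtrl replicate 3. In the shNAT10 libraries they lay between -0.09 and 0.07. In a bulk sample, fewer cells of a type and less RNA per cell cannot be told apart.

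The 10 members split by GC content in that library. ITGA2, ITGA6, ITGAV, ITGB1 and ITGB8, whose longest coding transcripts hold between 37.8% and 42.9% G and C, were between 28.0% and 49.0% lower in shCtrl replicate 2 than the mean of the other shCtrl libraries. ITGA3, ITGA5, ITGAE, ITGB4 and ITGB5, with between 54.3% and 63.7%, differed from that mean by between -2.42% and 33.4%. Whether base composition or transcript length set these differences was not tested. Because this library decides several of the comparisons, each affected member is given with and without it.

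In shCtrl cells the most abundant integrin mRNA was ITGB1, at a mean of 308.0 FPKM, followed by ITGB5 at 127.1 and ITGA3 at 103.1 FPKM. ITGA6, ITGA5 and ITGAV shared the middle of the order, with means of 58.7, 57.3 and 56.4 FPKM and overlapping ranges, so they did not differ beyond their spread. ITGA2 followed at 23.8, ITGB4 at 7.37, ITGAE at 5.92 and ITGB8 at 0.877 FPKM, each with a range apart from that of its neighbours. In shNAT10 cells ITGA3, at a mean of 128.6 FPKM, stood above ITGB5, at 80.5 FPKM, so these genes changed places, and ITGAV and ITGA5 were the only neighbours whose ranges overlapped. The summed FPKM of all 10 members was 818.8, 649.7 and 777.2 in shCtrl and 753.0, 752.3 and 777.4 in shNAT10, and the groups overlapped. These levels are per length of the longest annotated transcript, which is the length that turned the deposited values back into whole reads.

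**Figure D1:**
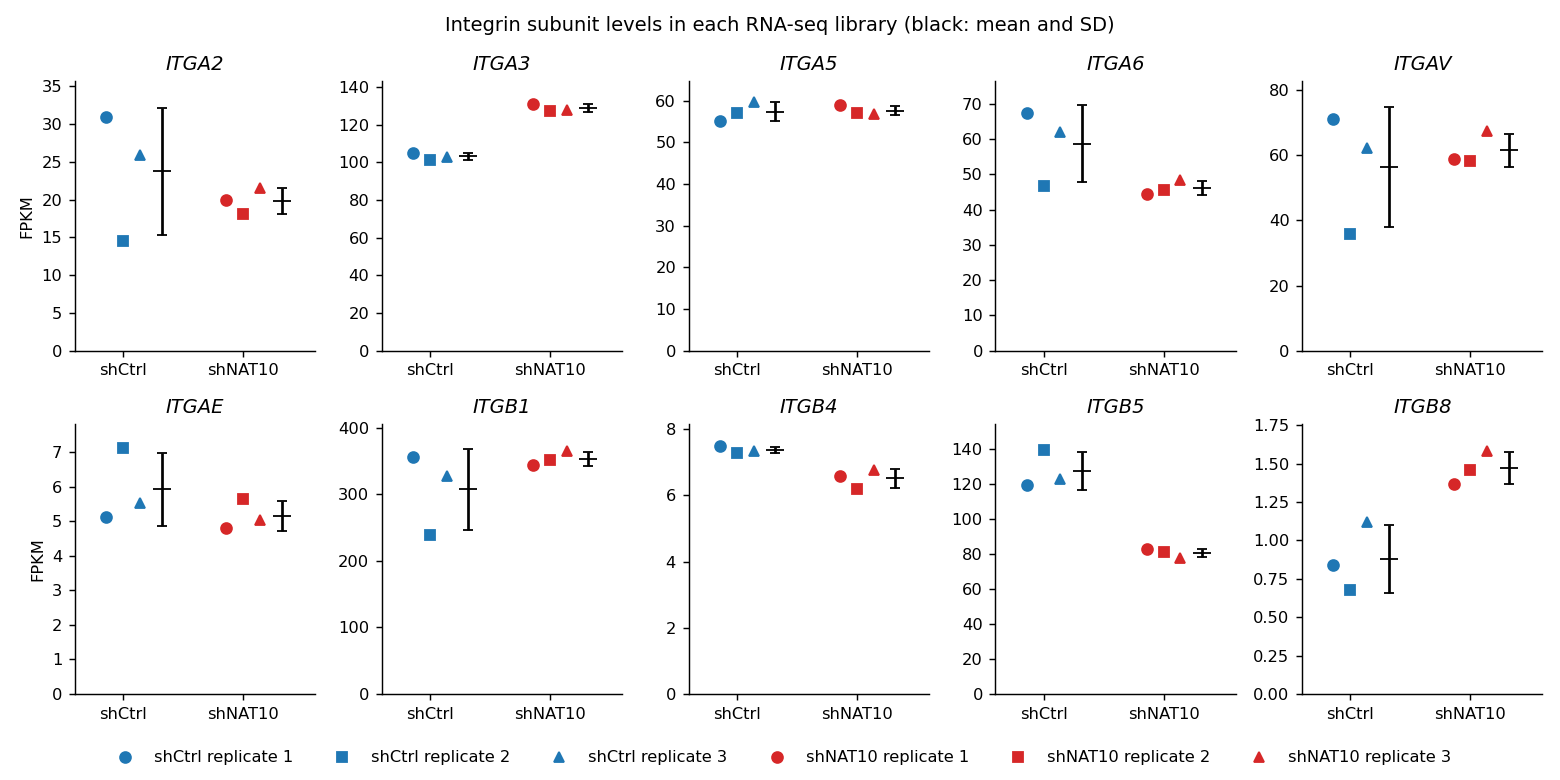
FPKM of the 10 integrin subunit genes (y axes from 0, one panel per gene) in the 3 shCtrl (blue) and 3 shNAT10 (red) RNA-seq libraries, with symbols for the replicate numbers and black bars for the mean and SD. ITGB5 is lower and ITGA3 and ITGB8 are higher in every shNAT10 library than in any shCtrl library, and the blue square, shCtrl replicate 2, lies well below the other blue symbols for ITGA2, ITGA6, ITGAV and ITGB1.

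With a limma adjusted p under 0.05 as the threshold, 1 member, ITGB5, had a lower level after knockdown and 2, ITGA3 and ITGB8, a higher level, while 7 members did not pass. Among the called members, ITGB8 entered the test through the shNAT10 libraries, where it is high. It was not called without the filter on low values (limma adjusted p = 0.0862). Among all 12982 genes tested, 42.0% were called, 21.2% as lower and 20.8% as higher, so the share of members called was no higher than that of the transcriptome. The median log2 fold change of the members was -0.08, beside -0.01 over all tested genes, with 5 members below 0 and 5 above it. The values of the 2 groups did not overlap for 4 members, ITGA3, ITGB4, ITGB5 and ITGB8, beside 56.5% of all tested genes. None of the members changed by as much as 1 on the log2 scale.

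ITGB5, the β5 chain, was the only member called lower with all 6 libraries. It lay on the minus strand at chr3:124761948-124901418, and no exon base of it was shared with another annotated gene. Its level was 119.1, 139.6 and 122.8 FPKM in shCtrl and 82.6, 81.2 and 77.8 FPKM in shNAT10, from 5716 to 12625 reads per library. Every shNAT10 library was below every shCtrl library. The mean decreased by 36.7%, from 127.1 ± 10.9 to 80.5 ± 2.48 FPKM (SD, n = 3 each), with a log2 fold change of -0.66 (standard error 0.08, 95% interval -0.84 to -0.47, limma adjusted p = 0.000902). shCtrl replicate 2 was the highest library for this gene, and without it the log2 fold change was -0.59 with an adjusted p from limma of 6.92e-05. The 4 keratins among the ductal markers were lower in the same libraries and EPCAM was higher, and their part in the ITGB5 difference was not tested. Among 11017 protein-coding genes tested, those whose pattern over the 6 libraries was most like that of ITGB5 included KRT8, H2AX, MAEA and UBA1, with Pearson correlations of 0.9993, 0.9992, 0.9991 and 0.9989. These libraries fall into 2 groups, and any gene that is lower in shNAT10 and highest in shCtrl replicate 2 scores high on this measure. KRT8, a ductal keratin that is also 1 of the markers above, went from 1555.6, 2008.7 and 1652.0 FPKM in shCtrl to 819.1, 768.7 and 711.1 FPKM in shNAT10.

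ITGB8, which also pairs with αv and activates latent TGF-β, moved the other way at a far lower level. It stood at 0.837, 0.678 and 1.12 FPKM in shCtrl and at 1.37, 1.46 and 1.58 FPKM in shNAT10, from 120 to 249 reads per library. The groups did not overlap (log2 fold change 0.71, standard error 0.22, limma adjusted p = 0.0387). The gene reached 1 FPKM in only 1 shCtrl library, so that it entered the test through the group in which it is high. The call was lost when any library other than shCtrl replicate 3 was left out, with adjusted p-values from limma between 0.0636 and 0.127, while the fold change stayed between 0.55 and 0.75 in these fits.

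ITGB1, the β1 chain shared by most of the α members, was at 356.6, 239.5 and 327.8 FPKM in shCtrl and at 344.4, 351.2 and 364.5 FPKM in shNAT10. The groups overlapped, and the low value belonged to shCtrl replicate 2. Its log2 fold change was 0.22 (95% interval -0.12 to 0.56, limma adjusted p = 0.259), and 0.05 without that library. ITGB4, the β4 chain of hemidesmosomes, was at 7.48, 7.29 and 7.33 FPKM in shCtrl and at 6.58, 6.2 and 6.77 FPKM in shNAT10. The 2 groups did not overlap, yet the difference of -0.17 on the log2 scale did not pass the test (95% interval -0.35 to -0.0, limma adjusted p = 0.0911).

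ITGA3, the α3 chain of the laminin receptor α3β1, rose. It was measured at 105.0, 101.4 and 102.9 FPKM in shCtrl and at 131.0, 127.3 and 127.7 FPKM in shNAT10. The mean was 24.8% higher in the shNAT10 libraries, and the replicates of each group lay within a few percent of each other (log2 fold change 0.32, standard error 0.06, 95% interval 0.19 to 0.45, limma adjusted p = 0.00428). The fold change stayed between 0.31 and 0.33 when any library was left out, with the call kept each time.

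ITGA6, the α6 chain that partners both β1 and β4 on laminin, was at 67.4, 46.6 and 62.1 FPKM in shCtrl and at 44.5, 45.6 and 48.3 FPKM in shNAT10. Apart from shCtrl replicate 2, the groups did not overlap. With all libraries its log2 fold change of -0.33 did not pass the test (standard error 0.14, 95% interval -0.65 to -0.01, limma adjusted p = 0.0896), whereas without shCtrl replicate 2 it was -0.49 with a limma adjusted p of 0.000441. ITGA2, the α2 chain of the collagen receptor, showed the same dependence. It was at 30.9, 14.5 and 25.9 FPKM in shCtrl and at 20, 18.1 and 21.5 FPKM in shNAT10, with a log2 fold change of -0.19 in all libraries (95% interval -0.8 to 0.42, limma adjusted p = 0.584) and -0.51 without shCtrl replicate 2 (limma adjusted p = 0.00401). With that library set aside, 3 members were called lower and 1 higher, beside 51.0% of all genes called, so the laminin and collagen α chains ITGA6 and ITGA2 joined ITGB5 among the lower genes and ITGB8 dropped out of the higher ones.

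ITGAV, the only α partner of β5, was at 71.2, 35.9 and 62.1 FPKM in shCtrl and at 58.9, 58.4 and 67.4 FPKM in shNAT10, and the groups overlapped. Its log2 fold change was 0.18 (95% interval -0.38 to 0.74, limma adjusted p = 0.57) and turned to -0.11 without shCtrl replicate 2 (limma adjusted p = 0.29), so no direction can be given for it. ITGA5, the α5 chain of the fibronectin receptor, was at 55.2, 57.1 and 59.7 FPKM in shCtrl and at 58.9, 57.1 and 56.9 FPKM in shNAT10. The groups overlapped, and its log2 fold change was 0.01 with a 95% interval of -0.14 to 0.15 (limma adjusted p = 0.926). ITGAE, the αE chain, was at 5.11, 7.11 and 5.54 FPKM in shCtrl and at 4.8, 5.65 and 5.03 FPKM in shNAT10, with overlapping groups and a log2 fold change of -0.18 (limma adjusted p = 0.317), and -0.05 without shCtrl replicate 2. For ITGAE, 7.59% of the exon bases are shared with genes of the opposite strand, among them HASPIN, and the counting was not stated to use strand, so reads of these genes could be mixed there. Its partner ITGB7 did not exceed 0.221 FPKM in any library, and the leukocyte markers PTPRC and CD3E were near 0.

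**Figure D2:**
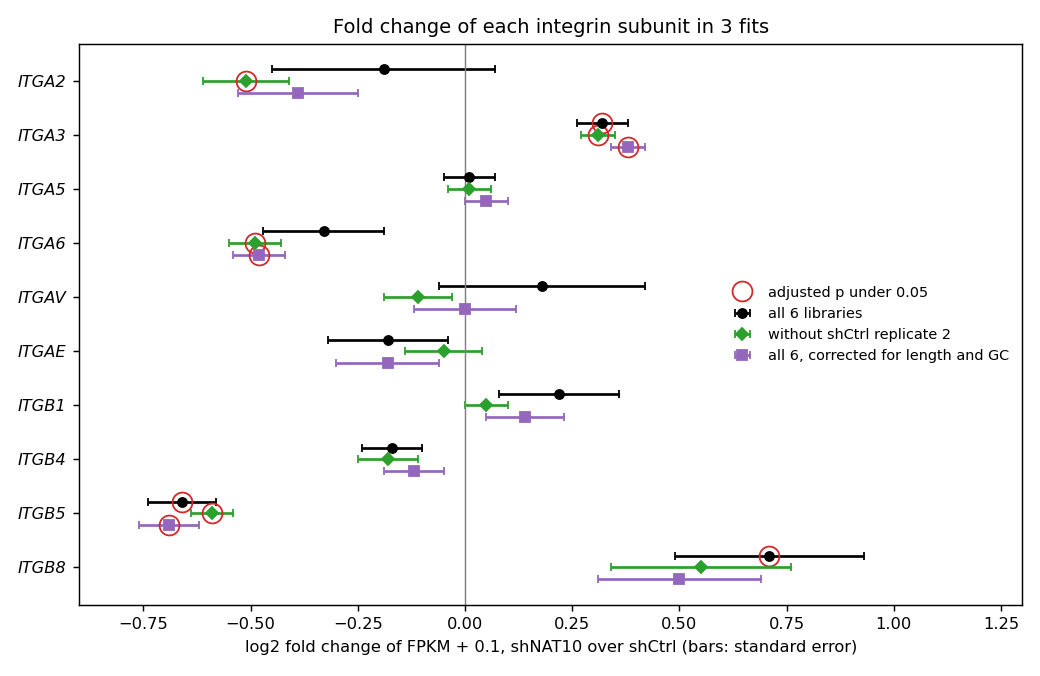
Log2 fold change of FPKM plus 0.1 (x axis, shNAT10 over shCtrl) for each member (y axis) with all 6 libraries (black), without shCtrl replicate 2 (green) and with all 6 libraries corrected for transcript length and GC content (purple). Bars are standard errors and red rings mark an adjusted p under 0.05. ITGB5 and ITGA3 are ringed in all 3 fits, ITGA6 in the fit without that library and in the corrected one, ITGA2 only without that library, and ITGB8 only with all libraries.

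Since an integrin needs both chains, the ratio of the α to the β mRNA was taken within each library for 8 possible pairs, which removes the scaling of the library. In 4 of the 8 pairs the ratios of the 2 groups did not overlap, beside 56.5% of all tested genes taken singly. The share over other gene pairs was not taken. With 3 libraries against 3, the two-sided exact permutation test cannot give a p below 0.1, and these 4 pairs reached that smallest value (0.2 after adjustment over the 8 pairs), so none can pass a threshold of 0.05.

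The steadiest ratio belonged to α6β1. ITGA6 over ITGB1 was 0.189, 0.194 and 0.189 in shCtrl and 0.129, 0.13 and 0.133 in shNAT10. The library that stood apart for each gene alone did not stand apart in their ratio, and the groups differed by -0.55 on the log2 scale, with an SD of 0.02 in each group. Without shCtrl replicate 2 the difference was -0.54. On a linear scale the ratio in shNAT10 was 0.684 times that in shCtrl. The 2 transcripts hold 42.9% and 40% G and C. Those of ITGA2 and ITGB1 hold 40.2% and 40%, and their ratio was 0.0604 in shCtrl replicate 2, beside 0.0867 and 0.079 in the other shCtrl libraries. Whether GC content or transcript length set the steadiness of a ratio was not tested.

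The αvβ5 ratio shifted the other way and more variably. ITGAV over ITGB5 was 0.598, 0.257 and 0.506 in shCtrl and 0.713, 0.719 and 0.866 in shNAT10. β5 mRNA exceeded αv mRNA in all 6 libraries, and less so in every shNAT10 library. The difference was 0.84 on the log2 scale and 0.47 without shCtrl replicate 2. These transcripts hold 38.3% and 54.3% G and C, and the part of GC content in the difference was not tested.

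The ITGA2 to ITGB1 ratio was 0.0867, 0.0604 and 0.079 in shCtrl and 0.0579, 0.0515 and 0.0591 in shNAT10, lower in every shNAT10 library by -0.41 on the log2 scale on average. ITGAV over ITGB8 was also below its shCtrl range in every shNAT10 library, with ratios of 85.1, 53.0 and 55.6 in shCtrl and 42.9, 39.9 and 42.7 in shNAT10. This ratio rests on ITGB8 levels of only 0.678 to 1.58 FPKM. For α3β1, α5β1, αvβ1 and α6β4 the groups overlapped, with differences of 0.1, -0.21, -0.04 and -0.15 on the log2 scale and exact permutation p-values between 0.4 and 0.9. Without shCtrl replicate 2, the α3β1 ratio was higher in every shNAT10 library by 0.26. The αvβ1 and α6β4 ratios were then lower in every shNAT10 library, by -0.16 and -0.3. With fewer shCtrl libraries groups stand apart more easily, and the share over all genes was not taken for this comparison. Ratios over ITGB1 share that gene, so their differences are not independent.

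**Figure D3:**
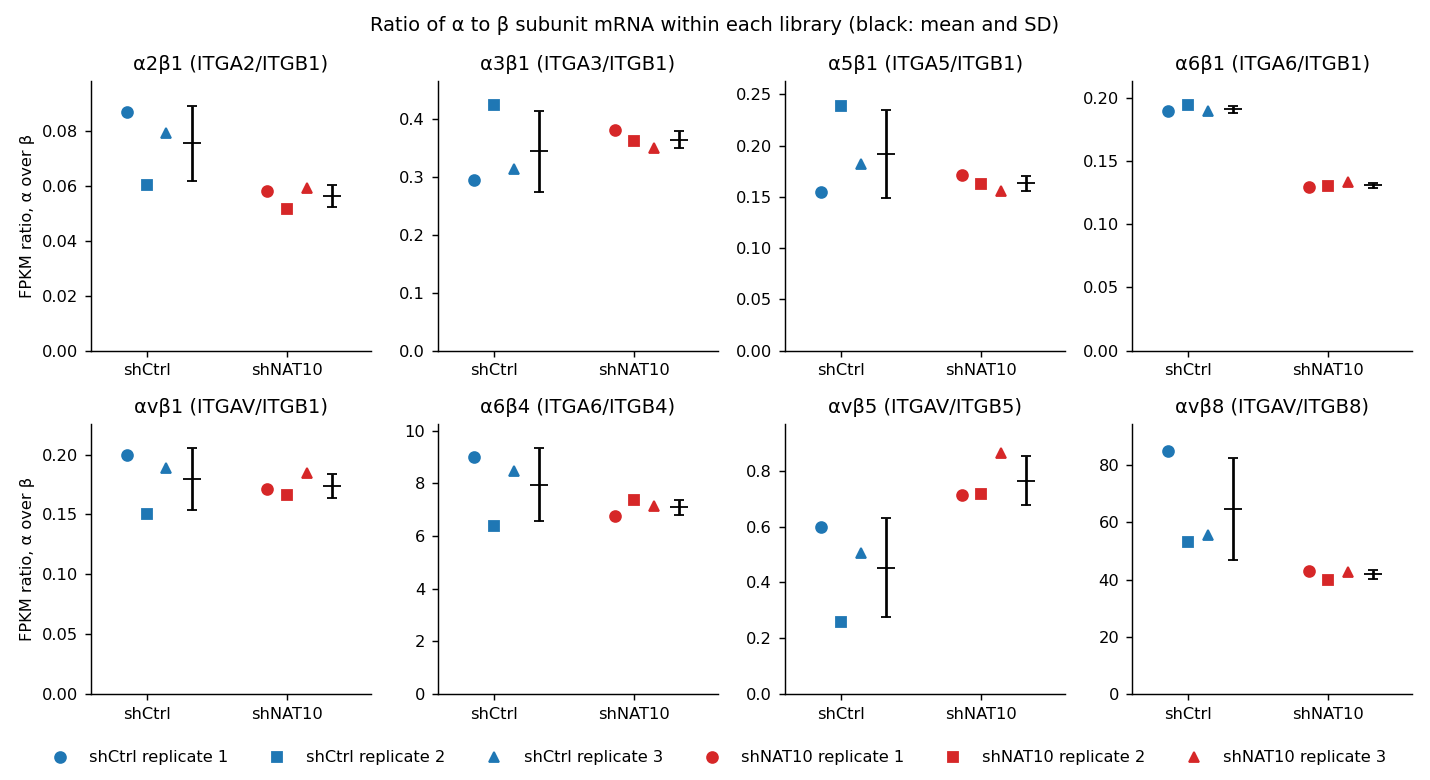
Ratio of α to β FPKM (y axes from 0) in each library for 8 possible integrin pairs, shCtrl in blue and shNAT10 in red, with replicate symbols and black bars for the mean and SD. The α6β1 panel shows the 3 values of each group almost on top of each other and a clear step between the groups, and in the α2β1, αvβ5 and αvβ8 panels the groups also stand apart with a wider spread in shCtrl.

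The supply of partners was read as shares of summed FPKM. Among the dedicated β partners of αv (β3, β5, β6 and β8), ITGB5 made up 98.4%, 98.9% and 98.4% in shCtrl and 97.2%, 97.3% and 96.9% in shNAT10. β5 therefore stayed nearly the whole of this pool in both groups, while the pool itself went from 121.0, 141.1 and 124.8 FPKM to 84.9, 83.5 and 80.3 FPKM. The share of ITGB8 was 0.689% ± 0.208 in shCtrl and 1.78% ± 0.176 in shNAT10 (SD, n = 3), and the groups did not overlap. A small share also rises when ITGB5 falls. The share of ITGB3 went from 0.691% to 1.02% without overlap, while its level averaged 0.884 and 0.846 FPKM. For the shares of ITGB5, ITGB8 and ITGB3 the two-sided exact permutation p was 0.1, and 0.225 adjusted over 9 shares. ITGB3 contributed at most 1.11% and ITGB6 at most 0.0955% in any library.

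Among the 5 α members that pair with β1, the share of ITGA6 was 20.4%, 18.2% and 19.9% in shCtrl and 14.2%, 14.9% and 15.0% in shNAT10. Its groups did not overlap (difference -4.81 percentage points, two-sided exact permutation p = 0.1, 0.225 adjusted over 9 shares). ITGA3 held 31.8%, 39.7% and 32.9% of this pool in shCtrl and 41.8%, 41.5% and 39.7% in shNAT10, and here only shCtrl replicate 2 reached into the shNAT10 range (difference 6.2 percentage points, exact permutation p = 0.2). The summed level of the 5 α chains over ITGB1 was 0.925, 1.07 and 0.954 in shCtrl and 0.909, 0.873 and 0.883 in shNAT10. The α and β1 mRNAs were thus of similar level per length in both groups, with a lower ratio in every shNAT10 library than in any shCtrl library. αv and α6 also pair with other β chains, so not all of this sum is open to β1.

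Of the 16 other integrin subunits, 1 passed the filter of 1 FPKM in at least 3 libraries. ITGA10, a collagen-binding α chain, was at 0.569, 0.488 and 0.492 FPKM in shCtrl and at 1.67, 1.43 and 1.33 FPKM in shNAT10 (log2 fold change 1.35, standard error 0.22, limma adjusted p = 0.00297). It entered the test only through the shNAT10 libraries. All others stayed below 1 FPKM in at least 4 libraries.

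The proteins around the integrins were described with 5 lists, whose counts stand beside the 21.2% lower and 20.8% higher calls among all tested genes. Of 25 tested activators and tail-binding proteins, 10 fell and 6 rose, with a median log2 fold change of -0.07. TNS4, a tensin without an actin-binding end, went from 3.01 ± 0.0105 to 1.47 ± 0.177 FPKM and TLN2, a talin, from 3.14 ± 0.584 to 1.52 ± 0.0897 FPKM, whereas TNS3, another tensin, rose from 61.1 ± 9.56 to 113.7 ± 4.15 FPKM (SD, n = 3 each). DOK1, an adaptor that competes with talin for the β tail, fell by 0.79 on the log2 scale (limma adjusted p = 0.0042). The number of activators and tail-binding proteins that fell was 6 without shCtrl replicate 3 or without any 1 of the shNAT10 replicates. In these fits 1765 to 1897 of all 12982 tested genes were called lower, beside 2751 with all 6 libraries. It was also 6 without a filter, with a filter of 5 FPKM and with each library scaled to the same summed FPKM (TPM). Lower calls over all genes were then 2330 of 29695, 2020 of 8474 and 2075 of 12982. Of 15 signalling kinases and adaptors, 7 fell and 3 rose, with a median of -0.15, and 1 rose without shNAT10 replicate 2 or 3. Over all tested genes, 1774 and 1785 were called higher in these fits, beside 2699 with all 6 libraries. DOCK1, an exchange factor for RAC1, rose with a log2 fold change of 1.12, and the adaptors BCAR1, TGFB1I1 and ZYX fell with -0.78, -0.78 and -0.7.

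Of 13 genes listed as membrane partners of integrins, 7 fell and 2 rose, with a median of -0.36, the lowest of the 5 lists. This list also held MFGE8, a secreted ligand of αv integrins, which was among those that fell (log2 fold change -0.58, limma adjusted p = 0.00235). MFGE8 is not counted with the αv and α5 ligands below. CD82, a tetraspanin, went from 4.54 ± 0.198 to 1.05 ± 0.119 FPKM and PLAUR, the urokinase receptor, from 5.56 ± 0.598 to 2.23 ± 0.143 FPKM. The tetraspanin TSPAN4 fell by 0.64 on the log2 scale, and SDC1, a heparan sulfate proteoglycan, rose with 1.05. Of 10 ligands of αv and α5 integrins and their latency partners, 3 fell and 3 rose, with a median of -0.05. NRROS, which presents latent TGF-β, and the matricellular CCN2 fell with -1.36 and -0.79, while tenascin C (TNC) and nidogen (NID1) rose with 1.04 and 0.69. Of 14 genes in a list of laminin and collagen ligands that also held CDH1, the E-cadherin bound by αE, 4 fell and 5 rose. Their median was 0.16, and CDH1 was in neither count. The collagen genes COL3A1 and COL4A1 and the laminin chain LAMA4 rose with 1.24, 0.93 and 1.13 from levels below 1 FPKM in every shCtrl library, so they entered the test only through the shNAT10 libraries. With a filter of 5 FPKM, 2 genes of this list rose, beside 2065 of the 8474 genes then tested. Limma adjusted p-values of the called genes named from these lists were at most 0.0158.

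In acRIP-seq the unit is a peak, a stretch with more reads in the immunoprecipitate than in the input, and its fold enrichment is the ratio of the 2 as the peak caller gave it. Each group has 1 list for all its immunoprecipitated and input samples, so these values have no replicate and no test. At least 1 peak fell on 9 of the 10 members in shCtrl and on 8 in shNAT10, beside 49.6% and 47.7% of all tested genes. ITGB8 carried none in either list, and ITGAE carried 2 in shCtrl only. In all, the members held 39 peaks in shCtrl and 40 in shNAT10. Of these, 23 and 20 overlapped a peak of the other list by at least 1 base, beside 25.6% and 27.4% of all peaks, and 3 in each list met it at a single base.

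Most of the overlapping peaks were on 2 genes. ITGA5, with 11 peaks in shCtrl and 7 in shNAT10 that covered 4592 and 4143 exon bases, accounted for 10 of the 23 overlapping shCtrl peaks and 7 of the 20 of shNAT10. ITGB4, with 11 and 9 peaks, accounted for 8 and 7. In ITGA2, ITGA3 and ITGAV no peak of a group overlapped one of the other. ITGA2 had a peak near the end of the coding sequence in shCtrl and in the 3′ UTR in shNAT10, ITGA3 went from 2 peaks, both in coding sequence, to 6, of which 3 lay in the 3′ UTR, and ITGAV from 3 peaks, all in the 3′ UTR, to 5, of which 2 lay in coding sequence. ITGB1 went from 4 peaks to 1.

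On ITGB5 the lists held 3 peaks in shCtrl and 7 in shNAT10. The shCtrl peaks had fold enrichments of 6.11, 8.16 and 4.25 from the 5′ to the 3′ end, and at least 82.8% of the shCtrl list had a higher fold than any of them. The shNAT10 peaks had 4.56, 11.3, 3.94, 1.59, 4.49, 3.59 and 4.87 in the same order. The first shCtrl peak was met by the third shNAT10 peak, which lay wholly inside it with a fold of 3.94 against 6.11, and 118 of its coding bases are the capitals in the sequence given above. The second shCtrl peak, at 8.16 the highest of this list on the gene, touched the fourth shNAT10 peak, at 1.59, in 1 base only, so its 181 bases had no counterpart in shNAT10 beyond that edge. The third, in the 3′ UTR, shared 211 of its 241 bases with a shNAT10 peak (4.25 against 3.59). The remaining 4 shNAT10 peaks, among them the highest at 11.3, stood where shCtrl had none. With 1 list per group, the number of peaks on a gene also moves with the depth and threshold of its list, which are not given in the sources used here.

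ITGB4 held the strongest enrichments among the members. Its folds ran from 4.5 to 861.0 in shCtrl, with a median of 90.1, and from 6.09 to 856.0 in shNAT10, with a median of 268.0. Its mRNA was low, at means of 7.37 and 6.52 FPKM. Over all genes, median folds were 270.0 and 244.0 below the expression filter, beside 37.5 and 33.7 on tested genes. ITGAE, at 5.92 FPKM in shCtrl, had folds of only 18.4 and 5.63. The part of the mRNA level in the folds of ITGB4 was not tested. The strongest peak of each list lay side by side in the coding sequence and met at 1 base, the capital at the start of the shCtrl peak 7 shown above. The third shNAT10 peak, at a fold of 244.0, enclosed all 210 bases of the fourth shCtrl peak, at 90.1, which are the capitals in that sequence. ITGA5 folds ran from 10.8 to 133.0 in shCtrl and from 11 to 71.5 in shNAT10. Peaks on the other members stayed at or below 18.4 in shCtrl and 45.5 in shNAT10, and the median fold of all member peaks was 18.0 and 11.1, beside 49.3 and 45.2 in the whole lists.

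**Figure D4:**
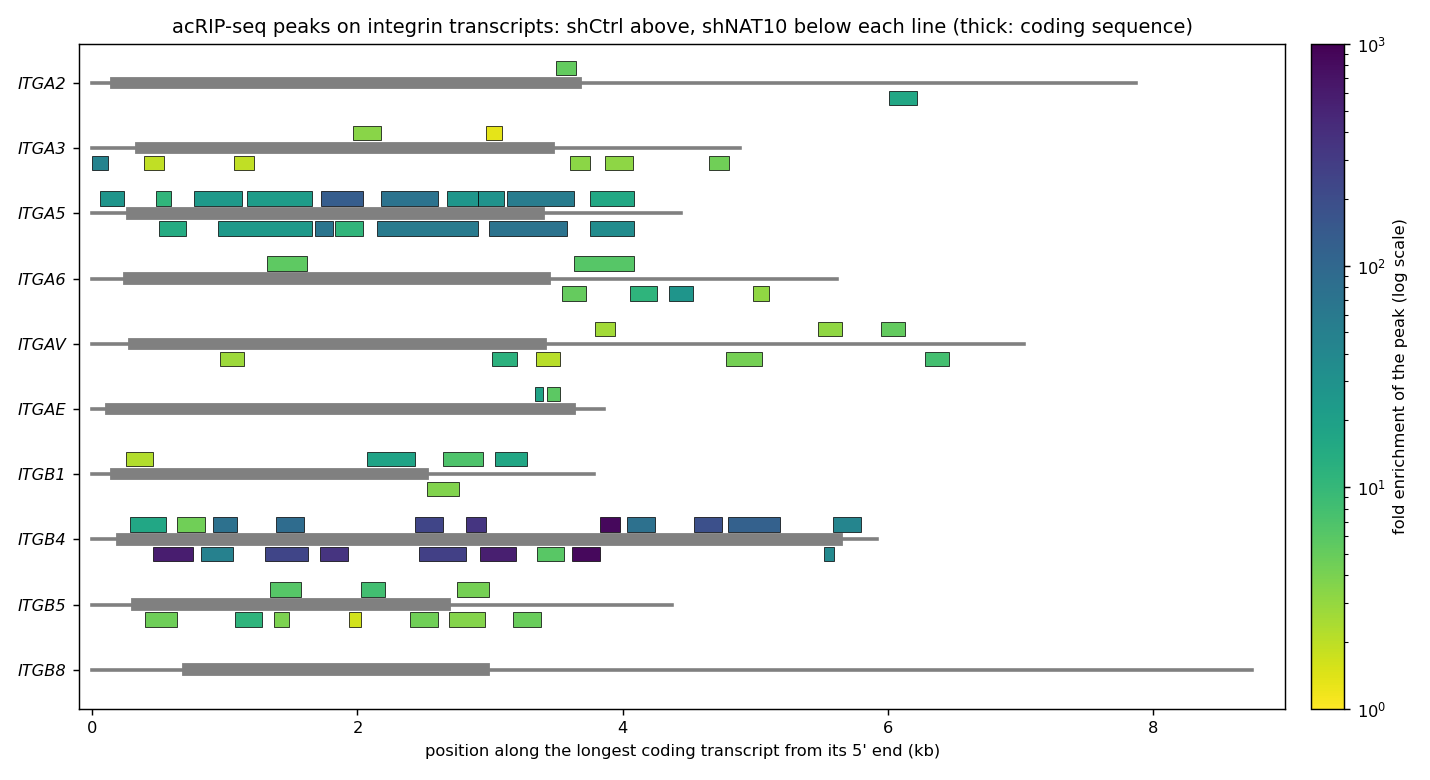
Positions of acRIP-seq peaks (boxes) along the longest coding transcript of each member (x axis in kb from the 5′ end, thick grey for the coding sequence), with shCtrl peaks above and shNAT10 peaks below each line and colour for the fold enrichment on a log scale. Boxes show only bases of that transcript, which leaves out 1 of the 11 shCtrl peaks of ITGA5. The other shCtrl peaks of ITGA5 and the 11 of ITGB4 are spread along the transcript, ITGB5 has 3 boxes above and 7 below, and ITGB8 has none.

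**Figure D5:**
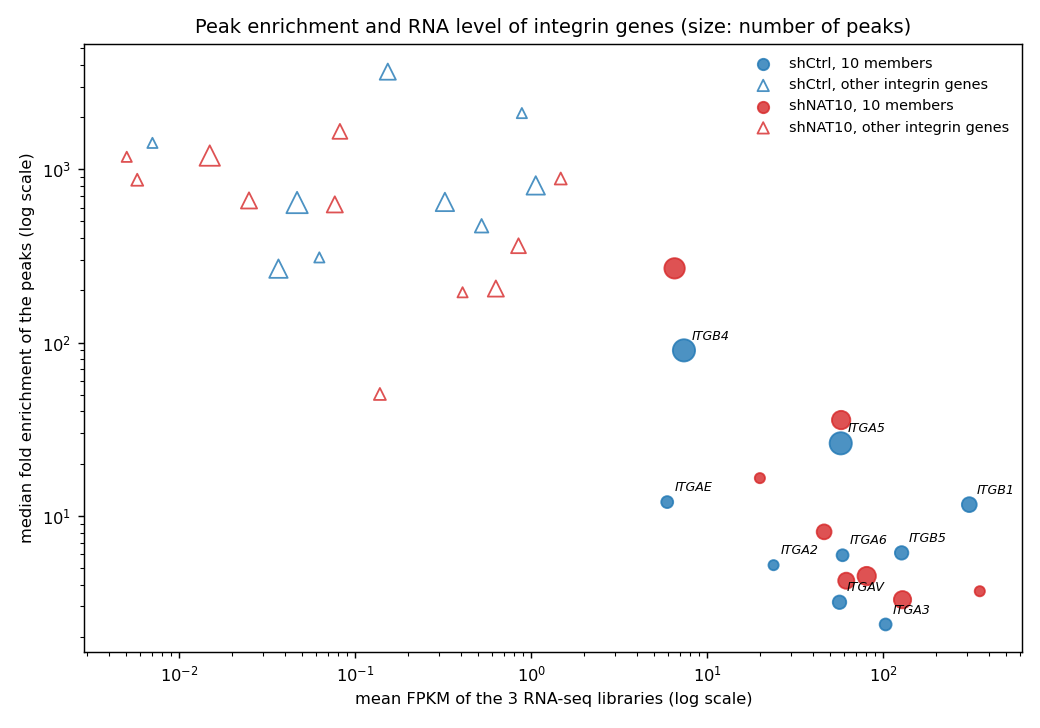
Median fold enrichment of the acRIP-seq peaks on each integrin subunit gene (y axis, log scale) in each group. The x axis (log scale) is the mean RNA-seq FPKM of the gene in that group, and members and other integrin subunits are marked apart. The strongly expressed members ITGB1, ITGA3 and ITGB5 lie at median folds of 2.36 to 11.6, and ITGB4 at 90.1 in shCtrl and 268.0 in shNAT10. Subunits below the filter range from 50.5 for ITGA1 in shNAT10 to 3660.0 for ITGB7 in shCtrl. Genes at 0 FPKM in a group are not drawn.

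By the midpoint of the peak on the longest coding transcript, 25 of the 35 shCtrl member peaks with a midpoint there lay in coding sequence, 9 in the 3′ UTR and 1 in the 5′ UTR, and in shNAT10 the numbers were 20, 15 and 1 of 36. Over all genes, 59.1% of such peaks lay in coding sequence in either list. The cytidine-rich motif CNNCNNCNNCNN, in which each C is followed by 2 bases of any kind, was searched on the mRNA strand in the central 100 bases of each peak. It was present in 19 of 35 shCtrl member peaks (54.3%) and 15 of 35 shNAT10 member peaks (42.9%), beside 31.9% and 31.8% of all peaks placed the same way. The share differed between members as it did between their transcripts. In ITGB4, 15 of 19 peaks held the motif, and 76.3% of windows of that length laid end to end along its transcript did so, with a median of 63.0% G and C. In ITGA6 it was in 0 of 6 peaks, in ITGAV in 1 of 8 and in ITGB1 in 1 of 5, beside 10.7%, 10% and 13.5% of their windows. In ITGB5 it was in 2 of 8 peaks, beside 39.5% of its windows. Of the ITGB5 sequences printed above, peak 2 of shCtrl held it at 1 position, and peak 1 of shCtrl and peak 2 of shNAT10 at 0.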

How the data were processed

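The authors deposited FPKM per gene and library, and the submitters' processing notes name HISAT2 2, HTSeq 0.11.0, DESeq2 1.22.2 and GRCh38. The mRNA kit was stranded, and the strand setting of the counting is not given in the sources used here. The authors also deposited 1 acRIP-seq peak list per group with the fold enrichment of immunoprecipitate over input and the log10 p-value of each peak, and the peak caller is not given in the sources used here.

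The members and lists were chosen with earlier results of these data known. All 10 members were named, as were ITGA10, the up to 4 called genes of each list with the largest fold change, and the 5 genes most like ITGB5, except that some of the genes these rules pick are not reported here. Reads were recovered from the FPKM steps with the longest GENCODE release 29 transcript of each gene, and 98.0% of the values examined were whole within 0.1 reads. Depth was 15964223 to 23718069 reads per library. Values were taken as log2(FPKM + 0.1), which understates changes of low genes, for the 12982 genes at 1 FPKM or more in at least 3 libraries. limma 3.58.1 in R 4.3.3, with its variance prior following the mean level and p-values adjusted over all these genes by Benjamini-Hochberg, compared the groups. Ratios and shares were compared by two-sided exact permutation tests in SciPy 1.17.1. Peaks were assigned by gene identifier and placed on the longest coding transcript, after starts, which count from 0, were moved by 1 base. Alternatives were another pseudocount, other filters, other scalings, voom on the recovered reads, a replicate block, leaving out each library and, chosen after seeing the data, a spline correction of each library for GC content and transcript length. Genome sequence and proteins were not used here.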

Additional observations from a re-analysis of the deposited data

How the results depend on the processing

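Of 159 values of the members' fold changes under the alternatives, 143 kept their direction and side of the threshold, 8 lost the call, 3 gained it and 5 changed sign. The number of members called lower was 2 with the length and GC correction, which was chosen after seeing the data, and 1 to 3 when a library was left out, with 3 without shCtrl replicate 2. The number called higher was 1 without a filter, with FPKM of at least 5 (ITGB8 is then not tested) and with the length and GC correction, and 1 to 2 when a library was left out. With the replicate number as a block it was also 1, and over all genes the calls were 2603 lower and 2524 higher, beside 2751 and 2699. The calls over all genes moved in the other settings too. They were 3424 lower and 3526 higher of 12952 with the length and GC correction. Without a filter they were 2330 and 2241 of 29695, and with FPKM of at least 5 they were 2020 and 2065 of 8474. When a library was left out they ran from 1765 to 3318 lower and from 1774 to 3302 higher. Deviations of same-numbered libraries correlated with -0.04, 0.06 and 0.11, and those of differently numbered ones with -0.12 to 0.06. With 3 libraries per group, these values cannot decide whether same-numbered libraries were prepared together. The sign changed for ITGA2 without shCtrl replicate 1 (0.03), for ITGA5 without shCtrl replicate 1 (-0.02) and without shNAT10 replicate 1 (-0.01), and for ITGAV with the length and GC correction (-0.0) and without shCtrl replicate 2 (-0.11), none of which passed the test. Whichever library was dropped, log2 fold changes ran from -0.51 to 0.03 for ITGA2, from -0.02 to 0.04 for ITGA5 and from -0.11 to 0.38 for ITGAV. The causes of these changes were not tested. TPM moved the median of all genes from -0.01 to 0.1 and the share of lower calls from 50.5% to 38.2%. Of 311 values of the genes that the naming rule picked from the lists, 308 were unchanged in direction and call and 3 lost it. For acRIP-seq, requiring that 50% of both peaks overlap left 8 overlapping member peaks in each list, and the more enriched 50% of either list held 11 member peaks, of which 8 overlapped and 9 lay in coding sequence. With 3 libraries per group and 1 peak list per group, small changes and any change in acetylation of a single peak were beyond what could be tested.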

Other observations

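The integrin subunits below the expression filter carried about the same number of acRIP-seq peaks as the members. They held 44 peaks on 10 genes in shCtrl and 39 peaks on 11 genes in shNAT10, with median fold enrichments of 698.5 and 646.0, beside 18.0 and 11.1 on the members. Over all genes below the filter the median folds were 270.0 and 244.0, and over tested genes 37.5 and 33.7. The leukocyte integrins ITGAX, ITGAL, ITGAM and ITGB2 had 10, 7, 7 and 7 peaks in shCtrl and 9, 5, 4 and 5 in shNAT10, although their mean levels in the RNA-seq libraries were 0.0308, 0.0307, 0.202 and 0.846 FPKM. By the study's methods, acRIP-seq used total RNA with ribosomal cDNA removed, and RNA-seq used captured mRNA. The RNA-seq levels are therefore not those of the acRIP-seq input. Of the 44 and 39 peaks, 65.9% and 66.7% overlapped a peak of the other list, beside 25.9% and 27.2% for all genes below the filter. The highest folds were 6060.0 on ITGB2 in shCtrl and 5890.0 on ITGAM in shNAT10.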
